A study of Mus musculus with 24 samples.

Results

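The genes described here encode the chains of collagens and laminins, the structural proteins of the extracellular matrix. They were taken from the deposited liver table as every gene whose symbol begins with Col, a type number, the letter a and a chain number, or with Lama, Lamb or Lamc and a number. This matched 56 of 15582 genes. Of these, 55 encode matrix chains, 44 of collagens and 11 of laminins, and the remaining match, Col4a3bp, encodes the ceramide transfer protein CERT and is described apart. In the table, 26 of the 55 genes (18 collagens and 8 laminins) reached 0.5 RPKM in at least 6 libraries, and 29 did not. RPKM values are reads scaled for gene length and for library depth, so levels can be set side by side between genes.

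The libraries came from livers of 4-week-old male mice of the hybrid strain B6C3F1, which carried no stated mutation or transgene. They drank water with dichloroacetic acid (DCA), which forms when water is disinfected with chlorine, at 0 (control), 1, 2 or 3.5 g/L for 6 days, and the comparison asks how liver expression differs between doses. There were 6 libraries per dose, 24 in all, with about 27100000 to 32300000 reads each, as estimated from the steps between values. RNA came from frozen pieces of mixed lobes, and whether each piece came from its own mouse is not said in words, so a p-value here speaks to the spread among libraries, which may be technical. The libraries carry hepatocyte RNA throughout, with a summed level of 8 hepatocyte markers of 17150 to 30905 RPKM over the 24 libraries.

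Collagen chains assemble into helical trimers. Fibrillar collagens (types I, III, V and others) form the cable-like fibres that stellate cells and portal fibroblasts lay down in liver scars. Type IV collagen forms the meshwork of basement membranes, and collagens XV and XVIII sit at their edge, where the cut end of collagen XVIII gives the fragment endostatin. Laminins are cross-shaped trimers of an alpha, a beta and a gamma chain that anchor cells to basement membranes, and Lama3 and Lamb3 encode chains of laminin-332, the anchor of epithelia such as skin and ducts. The healthy sinusoid has no continuous basement membrane, and hepatocytes themselves are known to make collagen XVIII.

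The plot of levels by class shows where these genes stood. Col18a1 was the highest in the set, at a mean of 97.1 RPKM over all 24 libraries, followed by Col3a1 (17.2 RPKM), Col4a1 (11.9 RPKM), Col14a1 (10.3 RPKM) and Col4a2 (7.82 RPKM). The laminin chain with the highest level was Lamc1, at 3.37 RPKM. In the controls, the summed level was 141 ± 6.98 RPKM for the 8 basement membrane collagens, 37.9 ± 10.3 for the 11 fibrillar collagens, 19.2 ± 2.56 for the 25 other collagens and 11.2 ± 1.45 for the 11 laminin chains (SD, n = 6).

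**Figure D1:**
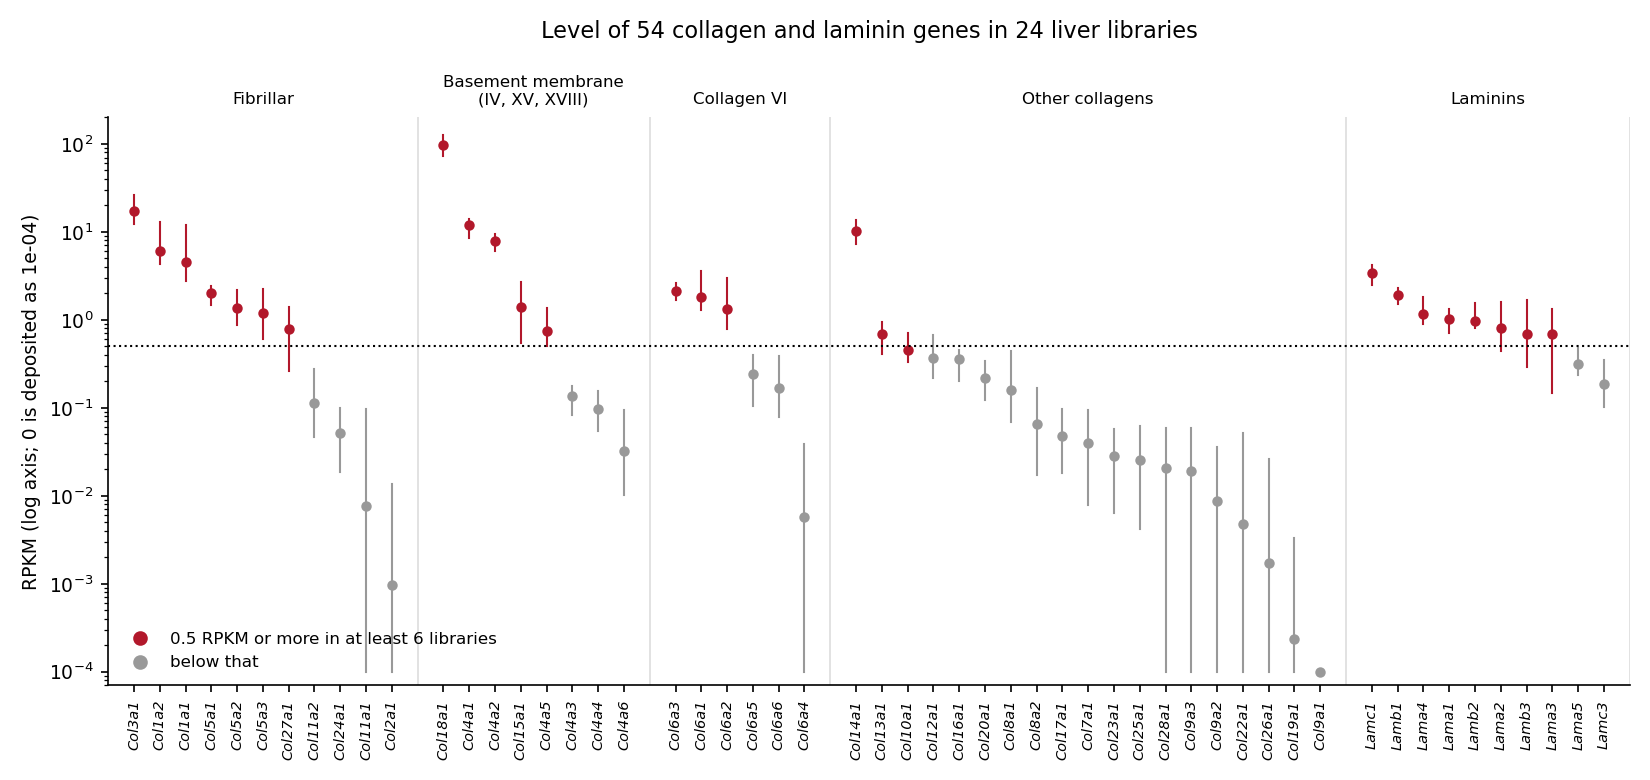
Level of 54 of the collagen and laminin genes in RPKM on a log axis. Points are means over 24 libraries, lines run from the lowest to the highest library, and the dotted line marks 0.5 RPKM. Col18a1 stands above the rest at a mean of 97.1 RPKM, and the 28 genes drawn in grey did not reach 0.5 RPKM in 6 libraries.

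One control library stood apart for these genes and is named first because some calls changed when it was left out. Control 5 held Col1a1 at 12.1 RPKM, against 3.46 to 5.27 RPKM in the other 5 controls, and Col1a2 at 13.0 RPKM, against 5.01 to 7.07 RPKM. Col6a2, Col15a1, Lama2, Col6a1, Col5a2 and Lamb2 were also at 1.74 to 2.19 times the mean of the other controls there, whereas Col18a1 (1.01 times) and Col4a1 (1.05 times) were not. The summed level of 9 markers of portal fibroblasts and mesothelium was 10.2 RPKM in control 5, against 4.47 to 6.43 RPKM in the other controls, and 8 of the 9 were highest there. The 12 stellate cell markers summed to 85.0 RPKM in it, against 65.4 to 74.3 RPKM, but only 3 of the 12 were highest there. Of these, Des (desmin) was at 14.3 RPKM, against 0.433 to 1.15 RPKM. The 14 endothelial markers summed to 87.8 RPKM in control 5, within the 84.3 to 100.1 RPKM of the others. Singly, Emcn lay above the range of the other controls, and Gpr182, Eng, Flt4 and Egfl7 lay below it. The part of these markers in the matrix values was not tested, and in bulk tissue fewer cells of a type and less RNA per cell cannot be told apart. Results that change without control 5 are given both ways below.

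**Figure D2:**
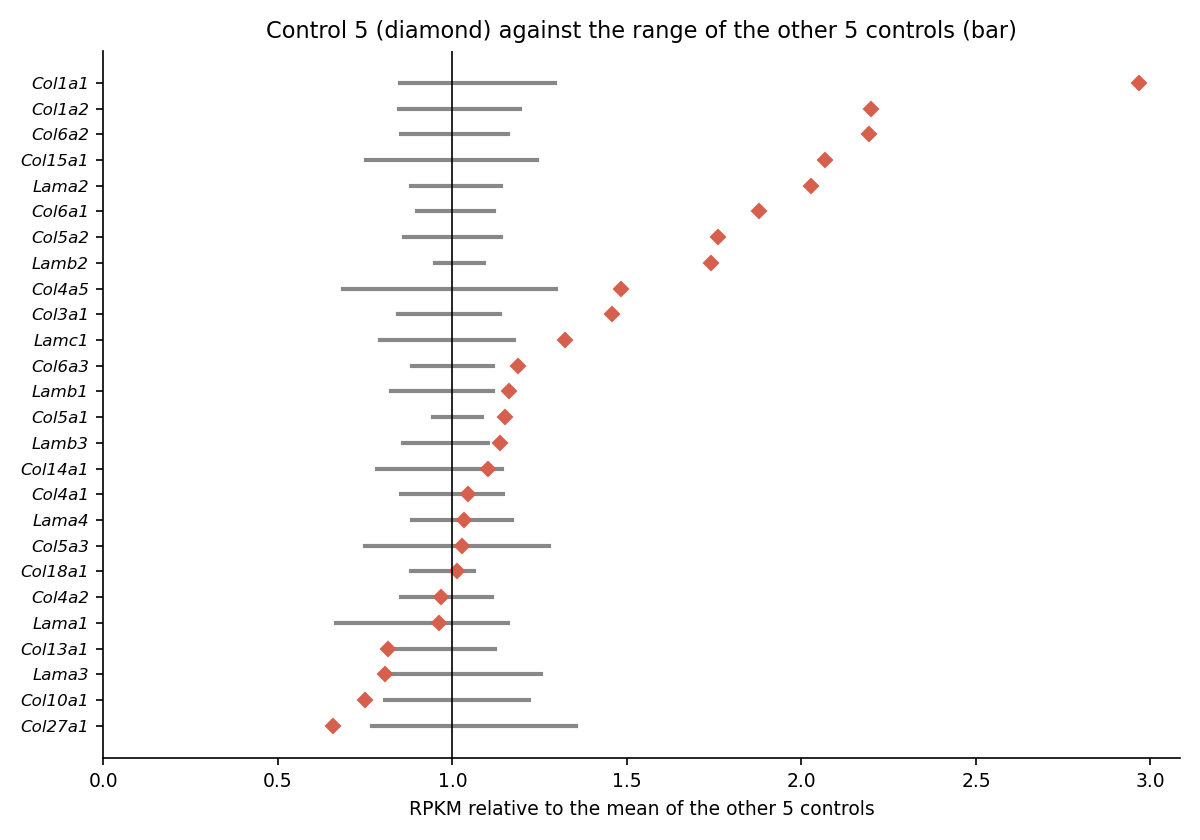
RPKM of the 26 tested collagen and laminin genes in control 5 (diamonds) and the range of the other 5 controls (bars), both divided by the mean of those 5. Col1a1 lies at 2.97 times that mean, and Col18a1 and Col4a1 lie near 1.

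Each dose was compared with control by limma, over 6540 genes and with Benjamini-Hochberg adjustment at 0.05. A difference is in log2(RPKM + 1), which understates the change of genes near or below 1 RPKM. Few matrix genes passed at 1 g/L. None of the 26 rose and 2 fell, Col13a1 and Col18a1, where 8.35% of all tested genes rose and 3.03% fell. At an unadjusted limma p under 0.05 the count was 8 of the 26. The share of all tested genes at that unadjusted level was not computed, here or for the lists below. At 2 g/L, Lamb3 rose and Col18a1, Lama3, Col27a1, Col6a1 and Col4a5 fell, 1 and 5 genes where 41.9% of all genes rose and 10.0% fell. At 3.5 g/L, Lamb3 and Col15a1 rose and Col18a1, Lama3, Col4a5, Col4a2, Lama1 and Col14a1 fell, 2 and 6 genes where 38.6% of all genes rose and 12.9% fell. Col18a1 alone was called at all 3 doses, and 15 of the 26 genes were called at none. The shares of all tested genes called at all 3 doses or at none were not computed. The 3 comparisons share the same controls. The count of 6 falls at 3.5 g/L was 4 without library 100 and 10 without library 101. A second gene, Col15a1, rose at 2 g/L without control 5 or without library 73. Shares of all genes called in these fits are not given.

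In order of dose, the 26 genes had median differences of −0.04, −0.07 and −0.13, where the median of all tested genes was 0.05, 0.12 and 0.10. The shift of all genes depends on how libraries are scaled. With library factors by median ratio, the all-gene median at 2 g/L was −0.0015, the counts of matrix genes that fell were 12 at 2 g/L and 12 at 3.5 g/L, and 21.1% and 23.3% of all genes fell. Rises were 73.4%, 80.6% and 75% of all calls at the 3 doses, and 40.7%, 50.3% and 50.2% with those factors. The counts of falls are therefore relative to that shift. Any of the 26 genes called at a dose in the main scaling was also called at that dose with those factors. The titles carry a tag whose meaning is not stated. It was L1 for all controls and 3 libraries of 1 g/L, and L2 for the other 3 and all of 2 g/L. It was L3 for all of 3.5 g/L, where tag and dose cannot be told apart. With the tag as a term, calls were fewer over all genes. At 1 g/L 0.6% rose and 0.8% fell, and at 2 g/L 9.5% rose and 3.7% fell. Within the tag L1, 0.2% rose and 0.6% fell at 1 g/L. Calls lost with the tag below are to be read against these shares.

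**Figure D3:**
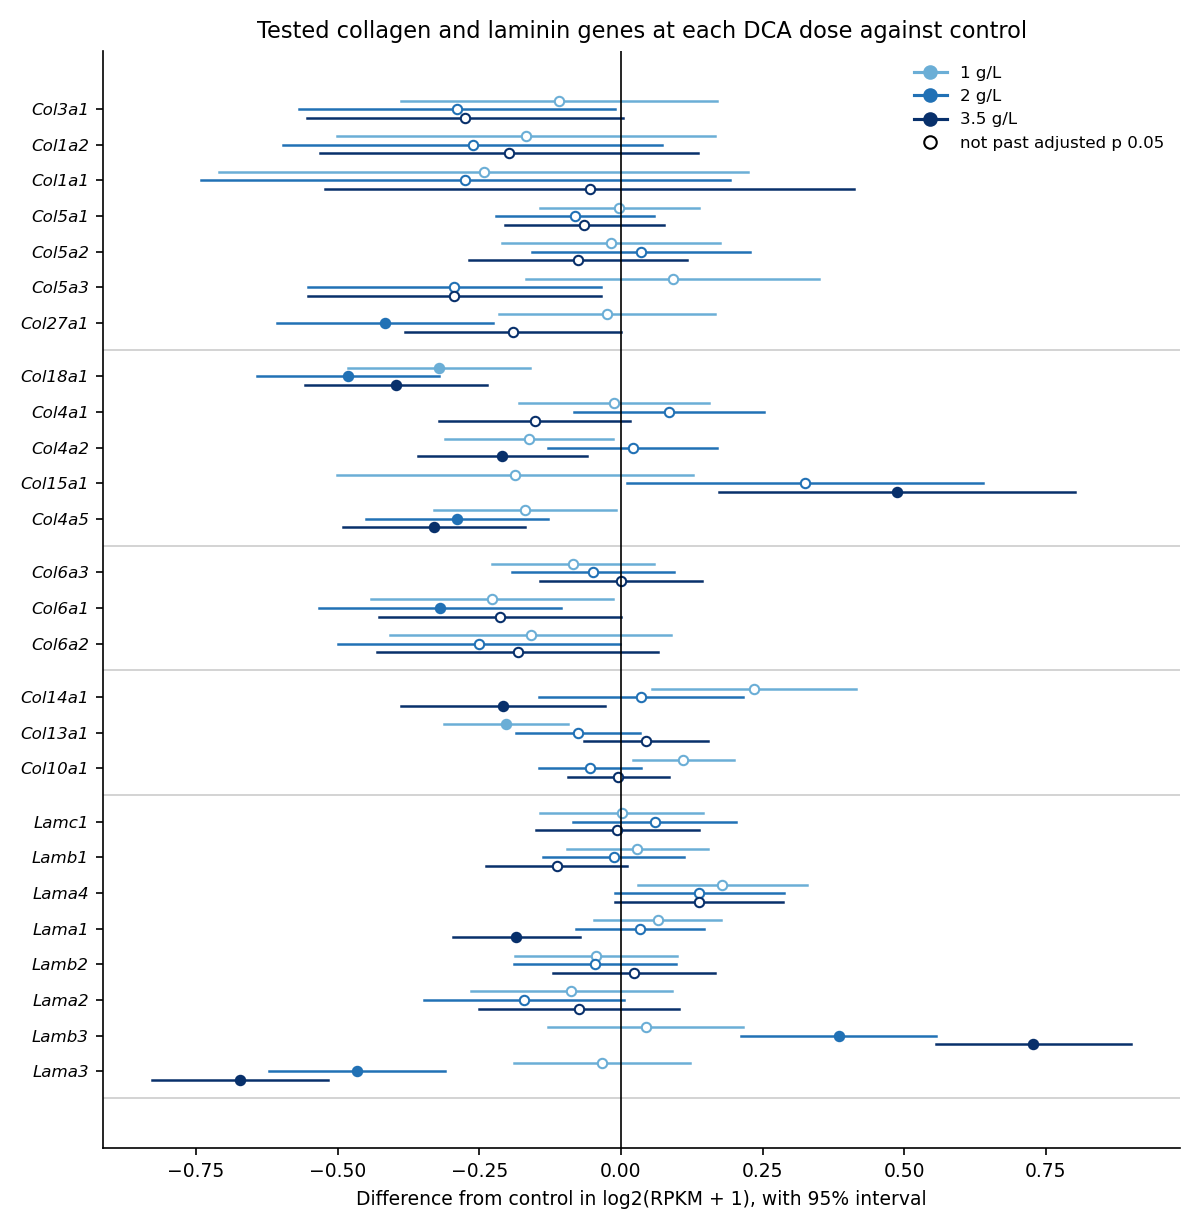
Difference from control in log2(RPKM + 1) of the 26 tested genes at 1, 2 and 3.5 g/L, grouped as fibrillar, basement membrane, type VI, other collagens and laminins, with 95% intervals from limma. Filled points passed an adjusted p of 0.05. Lamb3 lies farthest to the right at 3.5 g/L (0.73) and Lama3 farthest to the left (−0.67).

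Of the 7 tested fibrillar collagens, 1 fell at 2 g/L and none was called at 1 or 3.5 g/L in the main scaling. With median-ratio factors or quantile normalization, Col1a2, Col3a1, Col5a1, Col5a3 and Col27a1 fell at 2 g/L, where 21.1% and 20% of all genes fell. At 3.5 g/L, Col3a1 and Col5a3 fell with either, where 23.3% and 22.1% of all genes fell, and Col27a1 fell with median-ratio factors. Col3a1, the chain of type III collagen, gave 15.2, 18.2 and 26.2 RPKM as the lowest, median and highest control, and 12.3, 15.1 and 21.7 RPKM at 3.5 g/L, so the groups overlapped. Its difference was −0.29 (95% interval −0.57 to −0.01, adjusted p = 0.0765) at 2 g/L and −0.28 (−0.56 to 0.00, adjusted p = 0.092) at 3.5 g/L by limma. Col1a1 and Col1a2, the chains of type I collagen and the usual readout of scarring, were at medians of 3.94 and 5.95 RPKM in controls and 4.36 and 5.73 RPKM at 3.5 g/L. The interval of the Col1a1 difference at 3.5 g/L was wide, −0.52 to 0.41, and without control 5 its value was 0.17 in place of −0.06 (adjusted p = 0.445). Besides control 5, the 3.5 g/L library 101 was high in Col1a1, at 7.91 RPKM, with the next at 5.10 RPKM.

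Within a dose, the libraries high or low in type I collagen were often those high or low in types III and VI. At each of the 4 doses the library with the most Col1a1 also had the most Col1a2 and the most Col6a1. The library with the least Col1a2 also had the least Col3a1 at each dose. Col1a1 shared its lowest library with Col1a2 at 3 doses and with Col6a1 at 2, and Col1a2 shared its highest with Col3a1 at 3. Col6a1 and Col6a2 shared the highest library at 2 doses and the lowest at 2. The libraries with the most Col1a1 were control 5, 52, 75 and 101. The ratio of Col1a1 to Col1a2 was 0.727 ± 0.104, 0.681 ± 0.132, 0.715 ± 0.0900 and 0.816 ± 0.105 in order of dose from control (SD, n = 6), with overlapping ranges.

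The type V chains, which seed fibrils, did not pass against control in the main scaling. Col5a1 was at means of 2.08, 2.08, 1.91 and 1.95 RPKM at 0, 1, 2 and 3.5 g/L, and Col5a2 at 1.40, 1.35, 1.44 and 1.27 RPKM. Col5a3, known from adipose tissue, muscle and islets, was at 1.35 ± 0.275, 1.52 ± 0.422, 0.933 ± 0.370 and 0.931 ± 0.356 RPKM in the same order (SD, n = 6). Its difference of −0.29 at 2 and at 3.5 g/L missed the threshold (limma, adjusted p = 0.0527 and 0.0533). It was called as a fall at both doses with a pseudocount of 0.1, either library scaling, fits of only the doses compared and limma-voom. Col5a3 fell from 1 to 2 g/L by 0.39 (adjusted p = 0.0234). That last call was lost without library 49, 52, 74 or 75, and with the tag as a term (−0.37, adjusted p = 0.111).

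Col27a1, a fibrillar chain best known from cartilage, was the fibrillar collagen that passed against control in the main scaling. Its lowest, median and highest libraries were 0.683, 0.972 and 1.41 RPKM in controls, 0.810, 0.889 and 1.21 at 1 g/L, 0.260, 0.463 and 0.696 at 2 g/L, and 0.515, 0.686 and 1.14 at 3.5 g/L. All 6 libraries of 2 g/L were below all of 1 g/L, and 1 control, control 5, lay inside the range of 2 g/L. The mean at 2 g/L was 0.493 times that of controls (difference −0.42, SE 0.09, limma adjusted p = 0.000642). At 3.5 g/L the difference was −0.19 (adjusted p = 0.0881), and −0.24 without control 5 (adjusted p = 0.0405). With the tag as a term the fall at 2 g/L was −0.38 and no longer passed (adjusted p = 0.118).

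Of the 5 tested basement membrane collagens, 1 fell at 1 g/L, 2 fell at 2 g/L, and 3 fell and 1 rose at 3.5 g/L in the main scaling. Their summed level was 141 ± 6.98, 116 ± 7.97, 109 ± 11.7 and 111 ± 8.89 RPKM at 0, 1, 2 and 3.5 g/L (SD, n = 6), most of it Col18a1. Whole reads were not recovered for Col18a1, so its reads per library are not given.

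Col18a1 lies on chromosome 10 at 77052178 to 77166548 (GRCm38, minus strand). It had its lowest, median and highest libraries at 104, 120 and 125 RPKM in controls, 85.7, 95.3 and 102 at 1 g/L, 72.9, 86.0 and 97.0 at 2 g/L, and 78.2, 91.0 and 97.2 at 3.5 g/L. Every treated library lay below every control. The means were 0.799, 0.718 and 0.758 times control at the 3 doses, with differences of −0.32 (SE 0.08, adjusted p = 0.0108), −0.48 (SE 0.08, adjusted p = 2.37e-05) and −0.40 (SE 0.08, adjusted p = 0.000165) by limma. Most of the gap was thus present at 1 g/L, and the steps from 1 to 2 g/L (−0.16, adjusted p = 0.128) and from 2 to 3.5 g/L (0.08, adjusted p = 0.53) did not pass. The 8 hepatocyte markers, mostly albumin, summed to means of 28572, 24582, 20361 and 20926 RPKM over the same doses, and their part in the values of Col18a1 was not tested. With the tag as a term, the difference at 1 g/L was −0.35 (adjusted p = 0.0845) and at 2 g/L −0.54 (adjusted p = 0.0188). Non-overlapping ranges against control were found for 1 of the 26 genes at 1 g/L and 3 each at 2 and 3.5 g/L, where 4.62%, 23.3% and 27.9% of all tested genes had them.

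Col15a1, the relative of Col18a1, lies on chromosome 4 at 47208161 to 47313167 (plus strand) and went the other way. Its lowest, median and highest libraries were 0.721, 1.04 and 1.99 RPKM in controls, 0.542, 0.708 and 1.66 at 1 g/L, 1.05, 1.70 and 2.07 at 2 g/L, and 1.16, 2.12 and 2.68 at 3.5 g/L. Control 5 was the highest control, and the 3.5 g/L libraries fell into 3 from 2.57 to 2.68 and 3 from 1.16 to 1.68 RPKM, so the ranges overlapped. The mean at 3.5 g/L was 1.77 times control (difference 0.49, SE 0.15, limma adjusted p = 0.00997). At 2 g/L the difference was 0.32 (adjusted p = 0.0774) with all libraries and 0.43 (adjusted p = 0.0196) without control 5, and Col15a1 rose from 1 to 2 g/L by 0.51 (adjusted p = 0.0143). That last value was 0.34 within the tag L2 (adjusted p = 0.183). The ratio of Col15a1 to Col18a1 had medians of 0.00851, 0.00714, 0.0176 and 0.0228 over the 4 doses, and Col18a1 stayed the more abundant in every library.

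The sequences before the start sites of these relatives are shown because the genes moved in opposite directions. They are the 250 bases upstream of RefSeq starts in GRCm38.p6, 5′ to 3′ on the gene's strand. They lie at chr4:47207762-47208011 (plus strand) for Col15a1, at chr10:77166531-77166780 (minus strand) for the outer start of Col18a1 and at chr10:77113706-77113955 (minus strand) for its inner start. Capitals mark matches, on either strand, to 7 motifs. These were the TATA box (TATAAA), the CCAAT box (CCAAT), the GC box (GGGCGG), the AP-1 site (TGANTCA), an E box (CACGTG), the nuclear receptor half-site (AGGTCA), and the DR1 repeat of that half-site, whose matches overlap it.
Col15a1: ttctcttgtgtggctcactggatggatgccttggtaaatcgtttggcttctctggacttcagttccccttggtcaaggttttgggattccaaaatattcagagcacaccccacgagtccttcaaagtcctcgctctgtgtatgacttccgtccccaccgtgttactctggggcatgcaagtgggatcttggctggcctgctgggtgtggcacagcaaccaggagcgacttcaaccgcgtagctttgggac
Col18a1 outer start: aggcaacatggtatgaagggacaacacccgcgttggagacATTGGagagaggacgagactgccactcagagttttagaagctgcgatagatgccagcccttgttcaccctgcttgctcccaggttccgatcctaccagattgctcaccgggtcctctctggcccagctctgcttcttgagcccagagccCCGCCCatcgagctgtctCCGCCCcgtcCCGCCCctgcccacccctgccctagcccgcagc
Col18a1 inner start: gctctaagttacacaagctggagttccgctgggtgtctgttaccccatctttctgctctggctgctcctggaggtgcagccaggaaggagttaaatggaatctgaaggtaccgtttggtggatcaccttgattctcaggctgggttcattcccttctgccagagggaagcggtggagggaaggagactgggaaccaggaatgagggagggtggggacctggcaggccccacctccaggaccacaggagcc
The outer Col18a1 window held 1 CCAAT and 3 GGGCGG matches, and the other 2 windows held none of the 7. Over 32851 RefSeq windows of this length, 33.85% held CCAAT and 32.74% held GGGCGG. The table gives 1 value per gene, so which start the Col18a1 reads came from is not known.

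The type IV chains were tested for Col4a1, Col4a2 and Col4a5. Col4a1 and Col4a2 are the common chains and lie head to head on chromosome 8, with annotated starts that overlap by 22 bases. Col4a2 ran from 7.17 over 8.38 to 9.35 RPKM in controls and from 6.14 over 7.13 to 7.83 RPKM at 3.5 g/L (lowest, median, highest), with overlapping ranges. It fell at 3.5 g/L by 0.21 (SE 0.07, limma adjusted p = 0.0185), a call that ended when the 3.5 g/L library 100 was left out (−0.17, adjusted p = 0.0541). Its fall from 2 to 3.5 g/L (−0.23, adjusted p = 0.0428) was lost in 9 of the 24 fits that left out 1 library. Col4a1 was at 12.1 ± 1.25 RPKM in controls and 10.8 ± 1.30 at 3.5 g/L (SD, n = 6), a difference of −0.15 that did not pass (adjusted p = 0.121). At each of the 4 doses the library lowest in Col4a1 was also lowest in Col4a2, and the highest library was the same at 2 doses. Their ratio stayed between 1.37 and 1.70 in all 24 libraries, and at 1 g/L (1.57 to 1.70) it lay above all controls (1.37 to 1.55).

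Col4a5, on the X chromosome head to head with Col4a6, encodes a chain of mature basement membranes. Its lowest, median and highest libraries were 0.630, 0.970 and 1.36 RPKM in controls, 0.516, 0.780 and 1.04 at 1 g/L, 0.553, 0.597 and 0.747 at 2 g/L, and 0.501, 0.566 and 0.689 at 3.5 g/L. Control 5 was the highest control and control 3 the lowest, and only control 3 lay within the range of the 2 higher doses. Col4a5 fell at 2 g/L by 0.29 (SE 0.08, adjusted p = 0.00338) and at 3.5 g/L by 0.33 (SE 0.08, adjusted p = 0.00107), to 0.580 times control (limma). Without control 5 both falls remained, at −0.24 and −0.28, and with the tag as a term the fall at 2 g/L was −0.50 (adjusted p = 0.0226). Its partner Col4a6 and the pair Col4a3 and Col4a4 were at 0.178 RPKM or less in every library.

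Of the 25 other collagens, 6 were tested, and 1 of them fell at each dose in the main scaling, a different gene each time. Col13a1, a transmembrane collagen of cell contacts, had 0.639, 0.763 and 0.878 RPKM as its lowest, median and highest control and 0.409, 0.506 and 0.645 at 1 g/L. Only the lowest control, control 5, lay below the highest 1 g/L library. It fell at 1 g/L by 0.20 (SE 0.05, limma adjusted p = 0.0161), whereas the difference was −0.08 at 2 g/L and 0.04 at 3.5 g/L. Within the tag L1 the difference at 1 g/L was much the same, −0.20, and did not pass (adjusted p = 0.176).

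Collagen VI forms beaded filaments around cells, from chains encoded by Col6a1, Col6a2 and Col6a3. Col6a1 had lowest, median and highest libraries of 1.74, 1.98 and 3.63 RPKM in controls and 1.29, 1.57 and 1.86 RPKM at 2 g/L, where the ranges overlapped. It fell at 2 g/L by 0.32 (SE 0.10, limma adjusted p = 0.0128), and by 0.21 without control 5 (adjusted p = 0.035). With the tag as a term the difference was −0.43 (SE 0.19, adjusted p = 0.138). Its neighbour Col6a2, on the same strand of chromosome 10, was at 1.62 ± 0.674 RPKM in controls and 1.16 ± 0.209 at 2 g/L (SD, n = 6), which did not pass (adjusted p = 0.0842). With median-ratio factors or quantile normalization, Col6a2 was called as a fall at 2 g/L, and Col6a1 also at 3.5 g/L. Col6a3 had means between 2.03 and 2.22 RPKM and a 95% interval of −0.14 to 0.14 at 3.5 g/L.

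Col14a1, a collagen on the surface of fibrils, was at means of 10.1, 12.1, 10.4 and 8.60 RPKM over the 4 doses. At 3.5 g/L its libraries ran from 7.33 over 8.66 to 9.80 RPKM and the controls from 7.79 over 10.4 to 11.4 RPKM. It fell there by 0.21 (SE 0.09, adjusted p = 0.0495), at the edge of the threshold. The call was lost in 17 of the 24 fits that left out 1 library, that without control 5 included (−0.18, adjusted p = 0.1). Col10a1, the network collagen of growth plate cartilage, was at 0.444, 0.558, 0.389 and 0.438 RPKM. It reached the level for testing mainly through 1 g/L, which held 5 of the 7 libraries at 0.5 RPKM or more. It did not pass against control and was lower at 2 than at 1 g/L by 0.16 (adjusted p = 0.00631), all 6 libraries of 2 g/L lying below all of 1 g/L. Within the tag L2 that step was −0.15 and did not pass (adjusted p = 0.122).

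Among the laminins the chains of 1 trimer moved apart. Of the 8 tested chains, none was called at 1 g/L, 1 rose and 1 fell at 2 g/L, and 1 rose and 2 fell at 3.5 g/L. In the main scaling, the changes against control were in Lamb3, Lama3 and Lama1.

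Lamb3, the beta chain of laminin-332, lies on chromosome 1 at 193207699 to 193343878 (GRCm38, plus strand). Its lowest, median and highest libraries were 0.292, 0.365 and 0.387 RPKM in controls, 0.305, 0.384 and 0.468 at 1 g/L, 0.507, 0.779 and 1.10 at 2 g/L, and 0.848, 1.26 and 1.67 at 3.5 g/L, or 33 to 195 reads a library. Every library of 2 and 3.5 g/L was above every control and every library of 1 g/L. The mean was 2.21 times control at 2 g/L (difference 0.38, SE 0.08, adjusted p = 0.000543) and 3.60 times at 3.5 g/L (0.73, SE 0.08, adjusted p = 1.45e-07) by limma, and 1.12 times at 1 g/L (0.04, adjusted p = 0.76). Lamb3 also rose from 1 to 2 g/L by 0.34 (adjusted p = 0.00383) and from 2 to 3.5 g/L by 0.34 (adjusted p = 0.0104). With the tag as a term the difference at 2 g/L was 0.42 (adjusted p = 0.0248), and within the tag L2 the step from 1 to 2 g/L was 0.36 (adjusted p = 0.0518). The step from 2 to 3.5 g/L did not pass when only those doses were fitted (adjusted p = 0.0672).

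The 250 bases before the upstream one of 2 RefSeq starts of Lamb3, chr1:193301744-193301993 (GRCm38.p6, plus strand), are shown because this gene had the largest rise of the set.
Lamb3: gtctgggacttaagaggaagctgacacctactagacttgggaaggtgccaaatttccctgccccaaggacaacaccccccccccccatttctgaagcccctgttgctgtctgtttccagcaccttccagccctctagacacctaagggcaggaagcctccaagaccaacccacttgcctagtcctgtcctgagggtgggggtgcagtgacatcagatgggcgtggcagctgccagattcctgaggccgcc
This window, like that of Col15a1, held none of the 7 motifs, so it has no capitals.

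Lama3, the alpha chain of the same trimer, fell. An annotated gene, Gm29200, on the opposite strand shares 1.83% of its exon bases, and reads of the 2 genes may not have been separated there. Its lowest, median and highest libraries were 0.856, 1.02 and 1.33 RPKM in controls, 0.851, 0.931 and 1.27 at 1 g/L, 0.277, 0.457 and 0.698 at 2 g/L, and 0.148, 0.270 and 0.449 at 3.5 g/L, or 43 to 385 reads a library. Every library of 2 and 3.5 g/L was below every control and every library of 1 g/L. The mean was 0.460 times control at 2 g/L (difference −0.47, SE 0.08, adjusted p = 2.34e-05) and 0.265 times at 3.5 g/L (−0.67, SE 0.08, adjusted p = 1.02e-07) by limma, and 0.954 times at 1 g/L. With the tag as a term the difference at 2 g/L was −0.55 (adjusted p = 0.0133), and within the tag L2 the fall from 1 to 2 g/L was −0.47 (adjusted p = 0.0267). Both genes entered the test through the doses where they were high, Lamb3 with 12 libraries at 0.5 RPKM or more and Lama3 with 15. With no filter on low values their calls remained.

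Within 2 g/L, libraries 73, 74 and 75 were the 3 highest in Lamb3 (0.885 to 1.10 RPKM) and the 3 lowest in Lama3 (0.277 to 0.349 RPKM) and in Col18a1 (72.9 to 78.1 RPKM). Libraries 76, 77 and 78 gave 0.507 to 0.673, 0.564 to 0.698 and 93.9 to 97.0 RPKM for the same genes. Col27a1 was split in the same way, at 0.260 to 0.357 RPKM in libraries 73, 74 and 75 and 0.568 to 0.696 RPKM in 76, 77 and 78. The ratio of Lamb3 to Lama3 had a median of 0.334 in controls (0.273 to 0.452) and 0.418 at 1 g/L (0.271 to 0.508). It was 1.91 at 2 g/L (0.820 to 3.22) and 4.43 at 3.5 g/L (2.78 to 11.3), so that every library of 3.5 g/L held more Lamb3 than Lama3.

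**Figure D4:**
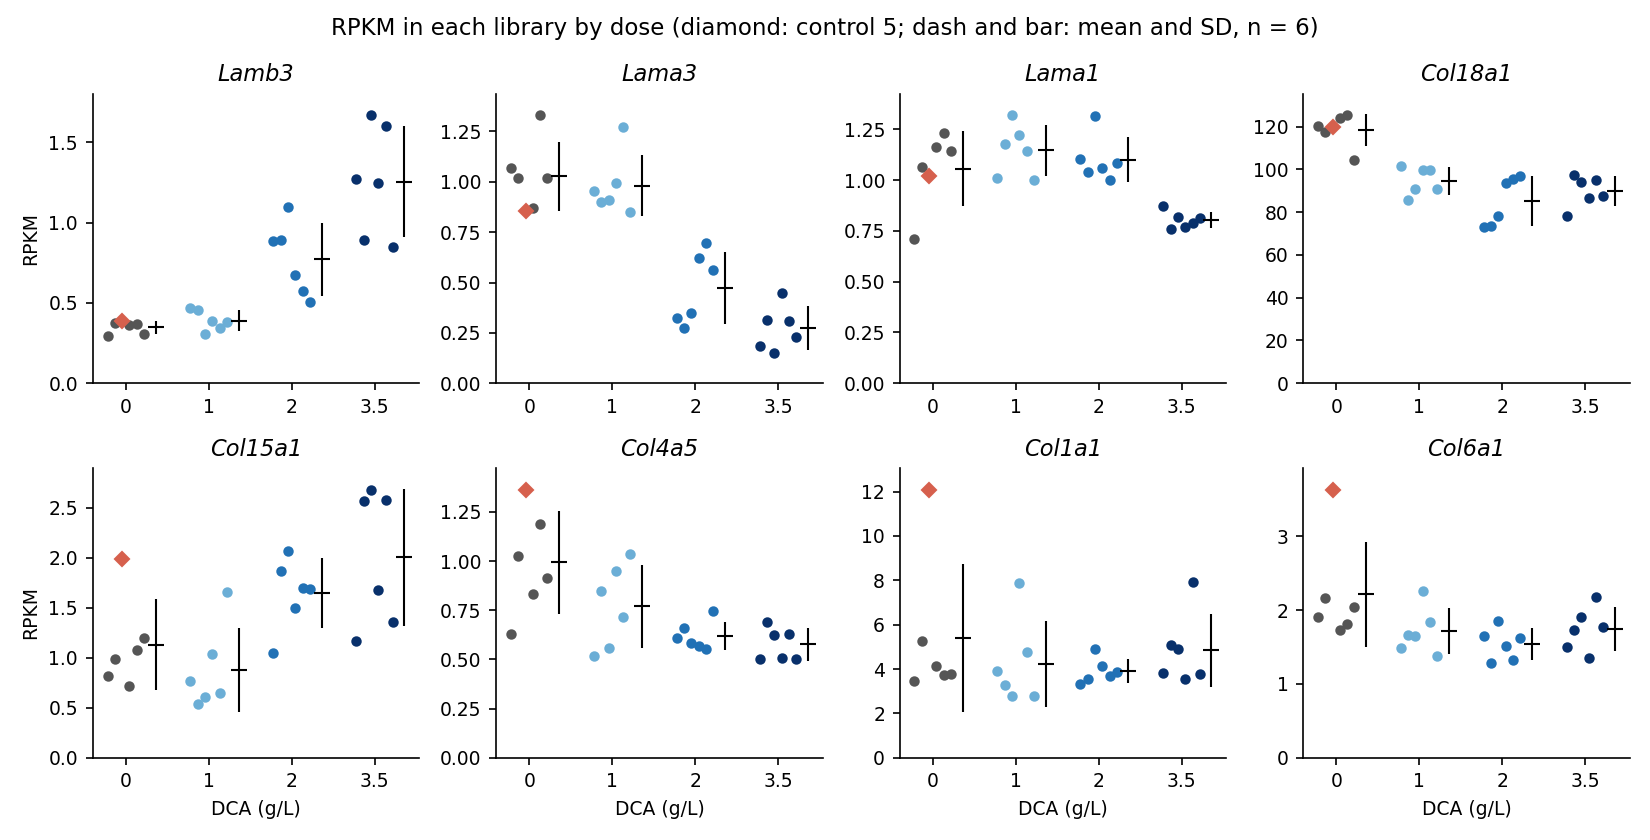
RPKM in each library by dose for 8 genes, with the mean and SD beside each group (n = 6) and control 5 as a diamond. Lamb3 is above all controls and Lama3 below all controls at 2 and 3.5 g/L, and Col18a1 is below all controls at every dose. Control 5 is the highest control in Col15a1, Col4a5, Col1a1 and Col6a1, and by a small margin in Lamb3 (0.387 RPKM, with the next at 0.375).

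**Figure D5:**
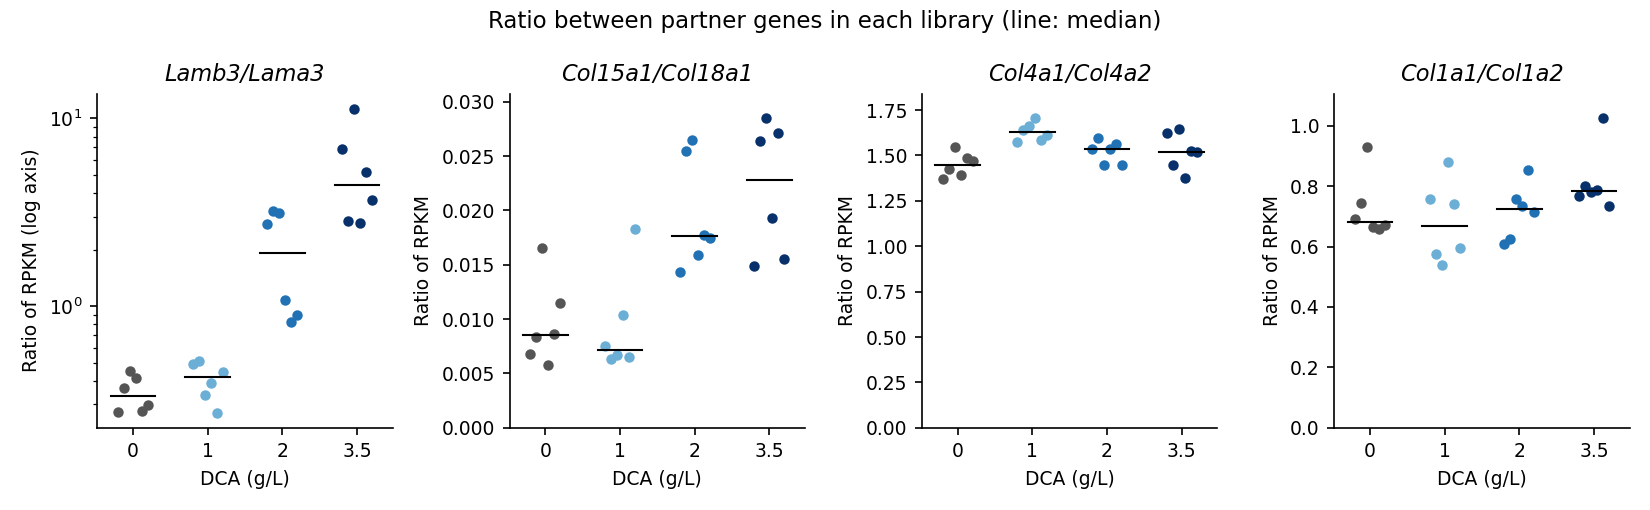
Ratio of RPKM between partner genes in each library by dose, with the median as a line. The ratio of Lamb3 to Lama3 (log axis) runs from a median of 0.334 in controls to 4.43 at 3.5 g/L, while that of Col4a1 to Col4a2 stays between 1.37 and 1.70.

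Lama1, an alpha chain best known from embryonic basement membranes, was lower at the top dose. Its lowest, median and highest libraries were 0.708, 1.11 and 1.23 RPKM in controls and 0.761, 0.801 and 0.872 at 3.5 g/L, where control 3 lay below the treated libraries and the other 5 controls above them. It fell there by 0.18 (SE 0.05, limma adjusted p = 0.00674) to 0.760 times control, and by 0.22 from 2 to 3.5 g/L (adjusted p = 0.0124) with no overlap. Library 75 was high within 2 g/L, at 1.32 RPKM.

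The chains of the more widespread laminins did not pass at any dose in the main scaling. With median-ratio factors or quantile normalization, Lama2 was called as a fall at 2 g/L and Lamb1 at 3.5 g/L. Lamc1, the gamma chain shared by most laminins, was at 3.35 ± 0.574, 3.32 ± 0.236, 3.51 ± 0.318 and 3.30 ± 0.205 RPKM at 0, 1, 2 and 3.5 g/L (SD, n = 6), with a 95% interval of −0.15 to 0.14 at 3.5 g/L. Lamb1 was at 1.98, 2.03, 1.95 and 1.75 RPKM, and Lamb2 at 1.01, 0.935, 0.935 and 1.03 RPKM. Lama4, the alpha chain of vessel walls, was at 1.01 RPKM in controls and 1.29, 1.22 and 1.21 RPKM at the 3 doses, with differences of 0.18, 0.14 and 0.14 (adjusted p = 0.103, 0.112 and 0.114). It was called at 1 g/L when library 54 was left out, and at 3.5 g/L when only that dose and the controls were fitted. Lama2, the alpha chain of muscle and mesenchyme, was at 0.918, 0.790, 0.690 and 0.806 RPKM, and control 5 alone gave 1.59 RPKM.

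Between the doses, 2 of the 26 genes rose from 1 to 2 g/L (Lamb3 and Col15a1) and 4 fell (Lama3, Col27a1, Col5a3 and Col10a1), where 22.7% of all genes rose and 5.63% fell. From 2 to 3.5 g/L, 1 rose (Lamb3) and 2 fell (Col4a2 and Lama1), where 4.79% rose and 5.54% fell. A straight line over dose gave 2 genes that rose (Lamb3, by 0.22 per g/L, and Col15a1, by 0.17) and 7 that fell, where 40.3% and 13.6% of all genes did. The falling slopes were those of Lama3 (−0.21 per g/L), Col18a1 (−0.11), Col5a3 (−0.11), Col4a5 (−0.09), Col14a1 (−0.08), Col27a1 (−0.07) and Lama1 (−0.06).

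The 29 genes below 0.5 RPKM were 4 fibrillar, 3 basement membrane and 19 other collagens and 3 laminins. They include the cartilage chains Col2a1, Col9a1, Col9a2, Col9a3, Col11a1 and Col11a2, and Col9a1 is listed at 0 in all 24 libraries. The 5 with the highest means were Col12a1 (0.365 RPKM), Col16a1 (0.363), Lama5 (0.312), Col6a5 (0.241) and Col20a1 (0.217). With no filter on low values, 28 of the 29 could be fitted. None was called at 1 or 2 g/L, and 3 rose and 1 fell at 3.5 g/L, where 4.81%, 29.0% and 29.3% of 11732 genes were called. Col12a1, a fibril-associated collagen of strained tissue, had 0.223, 0.276 and 0.352 RPKM as its lowest, median and highest control and 0.412, 0.481 and 0.680 at 3.5 g/L. These ranges did not overlap (73 to 239 reads over all libraries, difference 0.24, SE 0.05, limma adjusted p = 0.000279). Lama5 rose from 0.281 ± 0.0411 to 0.399 ± 0.0636 RPKM on 77 to 169 reads over all libraries (SD, n = 6, limma adjusted p = 0.00344). Col6a5 fell from 0.299 ± 0.0616 to 0.159 ± 0.0549 RPKM (limma adjusted p = 0.00554), and its whole reads were not recovered. Col7a1, named after its values were seen, rose from 0.0208 to 0.0641 RPKM on 2 to 26 reads (adjusted p = 0.00175).

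Col4a3bp, which the symbol rule caught, is no collagen. It rose at every dose, from 3.47 ± 0.333 RPKM in controls to 4.09 ± 0.332, 4.75 ± 0.185 and 5.88 ± 0.311 RPKM (SD, n = 6), with differences of 0.19, 0.37 and 0.62 (limma adjusted p = 0.0189, 3.63e-06 and 7.5e-10). The ranges at 2 and 3.5 g/L were above that of the controls. The rise at 1 g/L was not called under either library scaling, with only the doses compared, within 1 tag or without control 3. Nor was it called with the tag as a term, which gave 0.11 at 1 g/L and 0.21 at 2 g/L (limma adjusted p = 0.353 and 0.101).

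Genes that make, bind or cut these proteins were listed beside them. Counts in these lists and in the marker lists are to be read against the shares of all tested genes, of which 8.35% rose and 3.03% fell at 1 g/L, 41.9% and 10.0% at 2 g/L, and 38.6% and 12.9% at 3.5 g/L. Of 16 genes of collagen modification and cross-linking in the table, 10 were tested, of which 1 rose at 1 g/L, 3 rose and 2 fell at 2 g/L and 2 rose and 2 fell at 3.5 g/L. The largest was a fall of Loxl4, a lysyl oxidase that cross-links collagen, from 3.41 RPKM to 1.43 at 2 g/L and 0.675 at 3.5 g/L (differences −0.85 and −1.40, limma adjusted p = 9.65e-05 and 9.34e-08). Colgalt2, a collagen galactosyltransferase, rose at all 3 doses (0.22, 0.24 and 0.18), Ctage5, part of collagen export from the endoplasmic reticulum, at 2 and 3.5 g/L (0.19 and 0.27), and Crtap, of the prolyl 3-hydroxylase complex, at 2 g/L (0.33). Adamts2, which trims procollagen ends, fell at 2 and 3.5 g/L (−0.16 and −0.20).

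Of 6 other basement membrane genes tested, 1 fell at each dose. It was Agrn, the heparan sulfate proteoglycan agrin, at 4.47, 3.11, 2.89 and 2.71 RPKM over the doses (differences −0.41, −0.49 and −0.56, limma adjusted p = 0.000271, 1.1e-06 and 8.88e-08), with no treated library as high as any control. Of 9 tested receptors for collagens and laminins, limma called 0 at 1, 2 and 3.5 g/L, where 11.4%, 51.9% and 51.5% of all tested genes were called. At an unadjusted p under 0.05 the counts were 2, 0 and 0, and limma-voom on the recovered reads of 8 of them also called 0. The highest of them were Itgb1, the beta chain of the matrix integrins, at 21.5 RPKM, and Dag1, dystroglycan, at 11.8 RPKM in controls. Itgb4, the integrin partner of laminin-332, did not reach the level for testing.

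Of 12 tested genes of the fibronectin and elastic matrix, 2 fell at 1 g/L, 4 fell and 1 rose at 2 g/L, and 2 fell at 3.5 g/L (all genes: 3.03% fell, 10.0% fell and 41.9% rose, and 12.9% fell). Fn1, fibronectin, which hepatocytes also secrete into plasma, was at 214, 170, 183 and 147 RPKM (differences −0.33, −0.23 and −0.54). Mfap4 fell at each dose (−0.33, −0.32 and −0.26), but it was at 1.41 RPKM in control 5, against 0.303 to 0.609 RPKM in the other controls. Its difference without control 5 is not given. Ecm1 fell at 2 g/L (−0.27) and Efemp2 rose there (0.23). Of 3 tested small proteoglycans, 1 fell at 2 and at 3.5 g/L, biglycan (Bgn, −0.16 at both). Of 7 tested proteases, Mmp2, a gelatinase, fell at 2 and 3.5 g/L (−0.44 and −0.24), Mmp19 fell at all doses (−0.22, −0.16 and −0.16), and the membrane-bound Mmp14 and Mmp15 rose at 3.5 g/L (0.30 and 0.31).

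Markers of the cells that make matrix are given beside these results, and their part in them was not tested. Of 10 tested stellate cell markers, 2 rose and 2 fell at 2 g/L, where 41.9% and 10.0% of all genes did, and 1 rose at 3.5 g/L, where 38.6% did. They include Lrat, the enzyme that stores vitamin A, at 3.21 RPKM in controls and 4.57 at 3.5 g/L (0.38, limma adjusted p = 0.0409). Ngfr rose (0.22) and Ecm1 (−0.27) and Angptl6 (−0.19) fell at 2 g/L. The 12 summed to 65.4 to 85.0 RPKM in controls and 60.7 to 68.2 at 3.5 g/L. Of 2 tested contractile genes, Mylk fell at all doses (−0.42, −0.66 and −0.57) and Acta2, the actin of activated stellate cells, rose at 2 g/L (0.48, adjusted p = 0.0119). The 7 summed to 8.29 to 11.7 RPKM in controls and 6.46 to 8.26 at 3.5 g/L, of which Mylk, at means of 8.50 and 5.41 RPKM, made most of the gap, and 5 of the 7 had means below 0.5 RPKM at each dose. Of 6 tested portal fibroblast and mesothelial markers, 1 fell at 1 g/L (Mfap4) and 2 at 2 g/L (Dpt and Mfap4). At 3.5 g/L 2 fell (Entpd2 and Mfap4). Mfap4 and Entpd2, but not Dpt, were highest among controls in control 5, and their differences without it are not given. The 9 summed to 4.47 to 10.2 RPKM in controls and 4.14 to 6.67 at 3.5 g/L.

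Of the 14 endothelial markers, 1 rose at 1 g/L, 1 rose and 1 fell at 2 g/L, and 2 fell at 3.5 g/L. Of all genes, 8.35% rose at 1 g/L, 41.9% rose and 10.0% fell at 2 g/L, and 12.9% fell at 3.5 g/L. Kdr rose at 1 g/L (0.19) and F8 at 2 g/L (0.17), Gpr182 fell at 2 and 3.5 g/L (−0.22 and −0.21) and Flt1 fell at 3.5 g/L (−0.15). The 14 summed to 84.3 to 100.1 RPKM in controls and 83.0 to 93.9 at 3.5 g/L. Of 6 Kupffer cell markers, 5 fell at 3.5 g/L, where 12.9% of all genes did, and limma called none at 1 or 2 g/L (0 at an unadjusted p under 0.05 and 0 by limma-voom at both). The falls were largest for Clec4f and Cd5l (−0.55 each), Emr1 (−0.40) and Csf1r (−0.35), and their sum was 52.4 to 73.7 RPKM in controls and 32.6 to 48.5 at 3.5 g/L. Of 4 tested markers of cholangiocytes, epithelial cells that hold laminin-332 in some settings, 1 rose, Krt23, from 0.201 to 0.632 RPKM at 2 g/L and 3.01 at 3.5 g/L (differences 0.43 and 1.73, limma adjusted p = 0.000756 and 3.98e-12). It reached the level for testing only through those doses, its highest control being at 0.279 and its highest 1 g/L library at 0.359 RPKM. The defining markers Krt7 and Epcam were among the 4 below the level for testing. The 8 cholangiocyte markers summed to 3.24 to 4.29 RPKM in controls and 6.31 to 7.45 at 3.5 g/L, of which Krt23 made most of the gap. Of 8 hepatocyte markers, 2 fell at 1 g/L and 6 at 2 g/L, where 3.03% and 10.0% of all genes fell, and 6 fell and 1 rose at 3.5 g/L, where 12.9% and 38.6% did. The falls at 2 and 3.5 g/L were largest for F2, prothrombin (−0.94 and −1.02), Cps1 (−0.63 and −0.53), Apob (−0.52 and −0.63) and Apoa1 (−0.31 and −0.60), and Hnf4a rose at 3.5 g/L (0.43).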

How the data were processed

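RNA of 24 liver libraries was measured. The authors deposited 1 table of RPKM per gene and library; per the submitters' processing notes, Partek, STAR 2.4 and CASAVA were used with mm10, and the annotation and strand use in counting are not given in the sources used here. The table stops at Olfr272, so that line and 13 date-like symbols were dropped and later genes were not analysed here. Zeros stand as 1e-04 RPKM. After subtracting this, steps between values gave whole reads within 0.02 for 51 of the 56 matched genes and 79.62% of tested genes, and relative depths of 0.94 to 1.118; total reads are approximate, from 455 single-transcript genes. RPKM does not carry the counting error, so reads are given for some low genes. Among low genes named without them, reads per library were 33 to 89 for Col13a1, 31 to 61 for Col10a1 and 56 to 292 for Col27a1.

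The 6540 genes that reached 0.5 RPKM in 6 libraries were tested with limma 3.58.1 in R 4.3.3 on log2(RPKM + 1), with 1 mean per dose, an intensity trend, two-sided tests and Benjamini-Hochberg adjustment over all of them. The test and the read recovery were tested on simulated data. Every collagen or laminin gene that was tested is named, as are the 5 highest below that level; of other lists, up to 4 called genes with the largest differences, otherwise the 2 highest; Adamts2, Hnf4a and Des were named beyond this rule, after their values were seen. The genes and lists were chosen with earlier results of these data known. The promoter windows and motifs, gene ratios, the subtraction of 1e-04, the limma-voom alternative and the fit singling out control 5 were chosen after values were seen. Alternatives were another pseudocount, no filter or 1 RPKM, median-ratio and quantile scaling, no trend, pairwise fits, the title tag, and leaving out each library. Gene positions come from the Ensembl annotation of GRCm38, and promoter sequences from RefSeq (GRCm38.p6), where 40 of the 56 genes had an entry that was used. Col21a1 was not analysed here, and the values of 1 matched gene are not reported here.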

Additional observations from a re-analysis of the deposited data

Results flagged for a closer look

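Within each dose, the highest and lowest libraries of the 27 tested genes were set against Dixon's 95% critical value for 6 samples (0.625), in 108 groups. In 11 groups the highest library stood apart from the others, and chance flags about 1 in 20 groups. Of these, 8 were control 5: Col1a1 at 12.1 RPKM, Col1a2 at 13.0, Col6a1 at 3.63, Col6a2 at 2.96, Col5a2 at 2.18, Col15a1 at 1.99, Lama2 at 1.59 and Lamb2 at 1.56 RPKM. The others were Col1a1 in the 3.5 g/L library 101 (7.91 RPKM), Lama1 in the 2 g/L library 75 (1.32 RPKM) and Lama3 in the 1 g/L library 53 (1.27 RPKM).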

How the results depend on the processing

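No called difference of the tested genes reversed under any alternative. With 1 RPKM as the level for testing, 19 of the genes were left, so fewer could be called. Of these, 1 fell at 1 g/L, 0 rose and 3 fell at 2 g/L, and 1 rose at 3.5 g/L. Of all 5602 genes tested, 3.2% fell at 1 g/L, 46.3% rose and 10.2% fell at 2 g/L, and 43.3% rose at 3.5 g/L. From 1 to 2 g/L, 3 of the 19 were called. Median-ratio factors gave 12 falls at 2 g/L and 12 at 3.5 g/L, where 21.1% and 23.3% of all genes fell, and 15 slopes. Quantile normalization gave 11 and 11 falls, where 20% and 22.1% of all genes fell, and 16 slopes. Shares of all genes for slopes and for steps between doses are not given under the alternatives. The title tag as a term gave 0 falls at 1 g/L, 3 falls at 2 g/L and 3 calls from 1 to 2 g/L. Fits within 1 tag gave 0 falls at 1 g/L and 2 calls from 1 to 2 g/L. With the tag as a term, 0.8% of all genes fell at 1 g/L and 3.7% at 2 g/L, against 3.03% and 10.0% in the main fit. Within 1 tag, 0.6% of all genes fell at 1 g/L. Fits of only the doses compared gave 2 rises at 2 g/L, 3 rises at 3.5 g/L (Lama4 added) and 1 call from 2 to 3.5 g/L. In those fits 39.4% of all genes rose at 2 g/L and 37.5% at 3.5 g/L. Limma-voom on recovered reads, added after seeing the data, gave 1 fall at 1 g/L, since Col18a1 has no recovered reads. Of the 5207 genes in that fit, 2.3% fell at 1 g/L. Except where stated, the cause was not tested.

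Leaving out each library in turn gave 0 to 1 rises at 1 g/L (1 without library 54, Lama4) and 2 to 2 falls, 1 to 2 rises at 2 g/L (2 without control 5 or library 73, Col15a1) and 5 to 6 falls, and 2 to 2 rises at 3.5 g/L. Falls at 3.5 g/L ran from 4 without library 100, which ended the calls of Col4a2 and Col14a1, to 10 without library 101, which added Col3a1, Col5a3, Col6a1 and Col27a1. Calls ran from 5 to 7 between 1 and 2 g/L, 2 to 5 between 2 and 3.5 g/L (5 without library 77, with Col14a1 and Col4a1) and 9 to 11 for slopes. Lamb3, Lama3, Col18a1, Col4a5, Col15a1 and Lama1 kept their calls against control at 3.5 g/L in all 24 of these fits. Shares of all genes called in these fits are not given. No paired analysis was possible because replicate numbers are not shared between doses. Many genes under 0.5 RPKM rest on few reads, where a small change may not be detectable at this depth.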
